A study of Homo sapiens with 6 samples.

Results

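The genes described here are 39 genes of the machinery by which a natural killer (NK) cell releases its lytic granules and rebuilds its actin skeleton at the contact with a target cell. They were taken by symbol from a table of read counts for 36601 genes, and each of the 39 had 1 entry. The cells were NK92, an IL-2-dependent line from a human lymphoma of NK cells, stably carrying one of 2 shRNAs. One was a control (shCtrl) and the other (shmiR155HG) targeted miR155HG, the long non-coding RNA from which miR-155 is cut. All 6 libraries, 3 in each group, came from cells that had been given 1000 U/mL of IL-2 together with 10 ng/mL of IL-12 for 12 h, so the cells without the knockdown were activated as well. Neither group is described as having met target cells before the RNA was taken. The promoter and sequence of the shRNA, and whether the 3 libraries of a group came from separate cultures or transductions, are not given in the sources used here. The p-values below therefore measure the spread between these libraries, which may be technical.

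Lytic granules are secretory lysosomes that hold perforin and granzymes. After contact with a target, dynein draws them along microtubules to the organizing center, kinesin carries them toward the synapse, and the GTPase RAB27A with its effectors docks them at the membrane. UNC13D (Munc13-4) primes the docked granule, and STXBP2 (Munc18-2) with syntaxin 11 completes fusion together with SNARE proteins of the granule and the plasma membrane. Actin filaments nucleated by the Arp2/3 complex under WAS, and steered by CDC42, RAC2 and the exchange factors DOCK2 and DOCK8, form the synapse that the granules have to cross. Inherited loss of many of these genes impairs NK cell killing, among them UNC13D, STX11 and STXBP2 in familial hemophagocytic lymphohistiocytosis, RAB27A in Griscelli syndrome, LYST in Chediak–Higashi syndrome and WAS, WIPF1, DOCK2, DOCK8, ARPC1B, CORO1A, RAC2 and STK4 in immunodeficiency.

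Total counts lay between 33454786 and 39157264 per library, and 12263 genes passed a filter of more than 1 CPM (counts scaled to a common library size) in at least 2 libraries. MIR155HG, the targeted gene, was lower in every shmiR155HG library, at 0.299 to 0.730 CPM against 1.59 to 1.88 CPM. Of 8 NK cell markers, all but CD7 were above 1 CPM in every library, and their summed level was 2411.9 to 2496.5 CPM in shCtrl and 2654.4 to 2718.8 CPM in shmiR155HG libraries. Within that sum the markers went both ways. IL2RB was at 954 to 1036 CPM in shCtrl and 1256 to 1290 CPM in shmiR155HG libraries, while PRF1 (318 to 340 and 274 to 293 CPM) and NCR3 (154 to 167 and 127 to 143 CPM) lay lower in the latter without overlap. In the T cell receptor, myeloid and epithelial lists, of 4, 3 and 3 genes, 1 gene each was above 1 CPM throughout (TRAC, CSF1R and KRT5), and in the B cell and erythroid lists, of 3 genes each, none was. The epithelial sum was 4.03 to 4.54 CPM in shCtrl and 7.01 to 8.70 CPM in shmiR155HG libraries, with EPCAM and CDH1 at 0. The sums of the T cell receptor list (71.1 to 75.6 and 68.7 to 78.8 CPM), the B cell list (0.356 to 1.13 and 0.547 to 0.604 CPM), the myeloid list (3.55 to 5.59 and 2.94 to 5.18 CPM) and the erythroid list (0 to 0.0257 and 0 to 0.0598 CPM) overlapped. The summed level of 8 replication-dependent histone genes, whose mRNA mostly lacks a poly(A) tail, was 35.5 to 38.6 CPM in shCtrl and 67.0 to 71.0 CPM in shmiR155HG libraries. The median log2 fold change of all genes also rose with the GC content of the transcript, from −0.054 below 40% to 0.079 at 60% and above. The part of the NK marker, epithelial and histone sums in the differences below was not tested, and a GC correction is given beside each difference that it moved across the threshold.

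Of the 39 genes, 8 were lower and 3 were higher in shmiR155HG cells at an adjusted p under 0.05 (edgeR quasi-likelihood test, adjusted over all genes tested). The genes that fell were RAB27A, SYTL1, SYTL2, SNAP23, ARPC1B, ARPC5, DOCK2 and CDC42, and those that rose were STXBP2, MYH9 and DOCK8. Apart from SYTL1, the differences were small, with absolute log2 fold changes between 0.094 and 0.29. In bulk RNA a lower level in each cell and fewer cells expressing a gene cannot be told apart. The share called, 11 of 39 or 28.2%, compares with 15.3% of all genes tested, of which 7.26% were higher and 8.02% lower. Genes with more counts were called more often, 29.3% of those averaging 100 CPM or more and 11.4% of the others. The members had many counts, with a median of 191 CPM against 34.3 CPM for all genes tested. Of the 25 members at or above 100 CPM, 7 (28.0%) were called, close to the 29.3% of all genes in that range, and of the 14 members below it 4 (28.6%) were called. The median log2 fold change was −0.011 over the members and 0.00097 over all genes tested.

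SYTL1 passed the filter only through shCtrl libraries, so its place among the genes tested depended on the group in which it was high. Without it, 10 of 38 members (26.3%) were called. The 3 shmiR155HG libraries lay wholly above or below the 3 shCtrl libraries for 16 of the 39 members, against 30.8% of all genes tested. No single gene can reach an exact permutation p below 0.100 with 3 libraries against 3 (two-sided), so the calls rest on the fit across all genes. The authors' own rule takes edgeR's exact test, a raw P under 0.01 and more than a 1.2-fold difference. As run here, it called 8.29% of all genes, or 1017. The paper reports a larger number of changed genes, and the reason for the difference was not tested. Of the members, the rule as run here called SYTL1 and SYTL2, both lower.

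**Figure D1:**
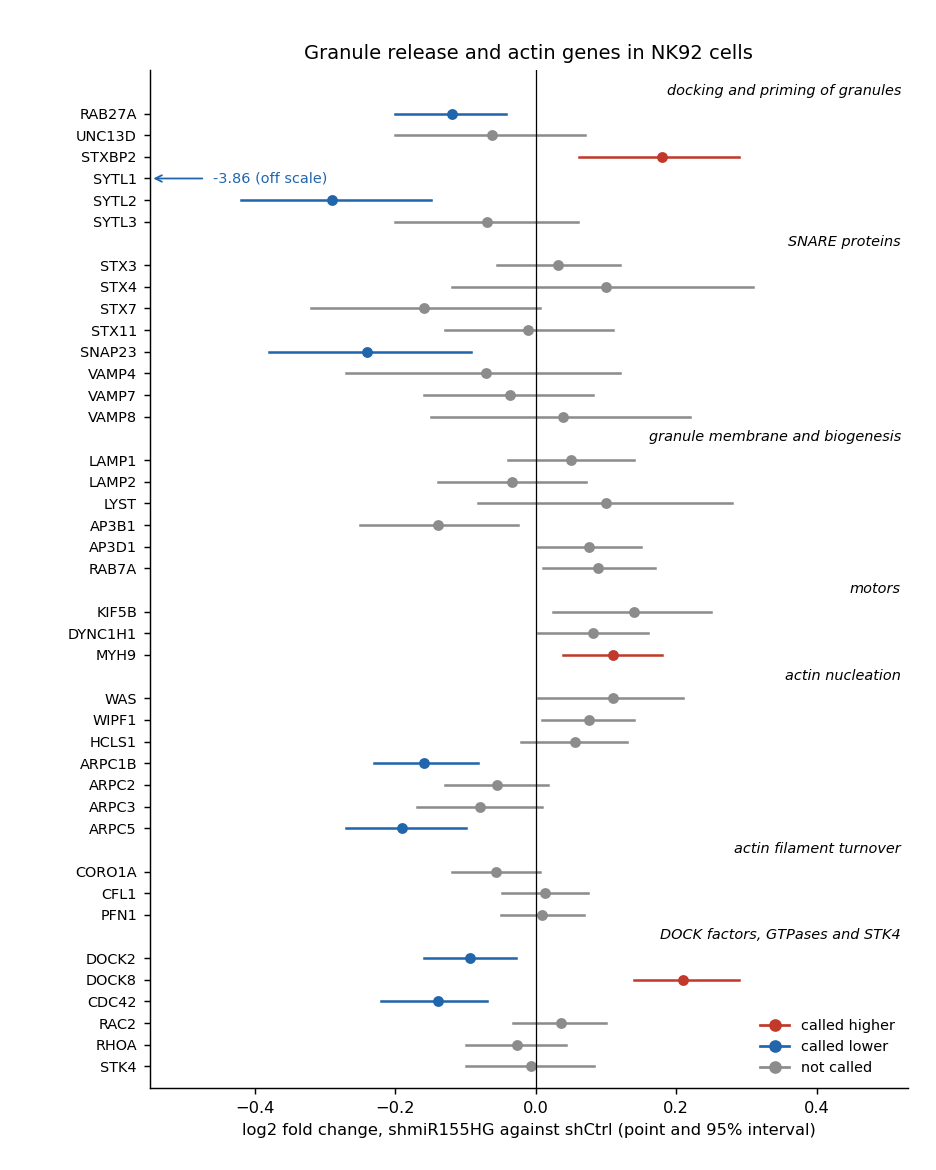
Log2 fold change of each of the 39 genes in shmiR155HG against shCtrl cells, grouped by role, as the estimate of the quasi-likelihood fit with its 95% interval (n = 3 libraries per group). Blue marks the 8 genes called lower, red the 3 called higher, and SYTL1 (−3.86) lies off the axis. Apart from SYTL1, each estimate lies between −0.29 and 0.21.

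**Figure D2:**
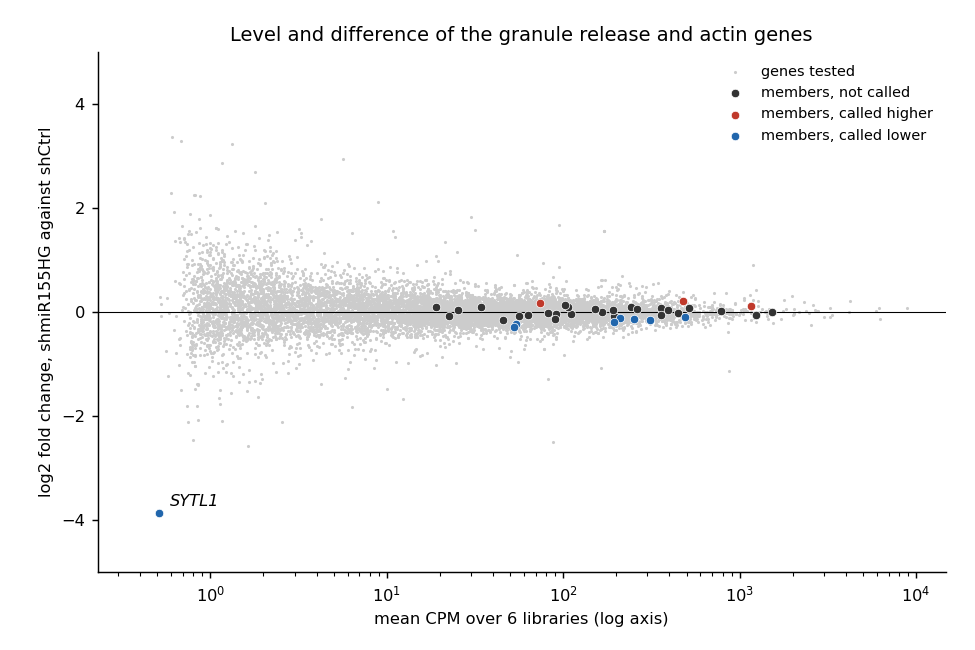
Mean level over the 6 libraries (CPM, log axis) against the log2 fold change in shmiR155HG cells for the genes tested (grey, 1 gene beyond the y axis) and the 39 members. The members lie near the zero line and mostly to the right of the median gene (34.3 CPM), and SYTL1 (−3.86) is alone at the lower left.

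Among the 6 factors that dock and prime granules, RAB27A and 2 of the 3 synaptotagmin-like effectors in the list were lower. The SNARE-binding factor STXBP2 was higher. Over all genes tested 8.02% were lower and 7.26% higher, and 1 of the 2 effectors, SYTL1, was tested only through shCtrl libraries. The count in this short list was not tested against those shares. RAB27A (ENSG00000069974; chromosome 15 from 55202966 to 55319113, minus strand, hg38) encodes the small GTPase that tethers lytic granules to the plasma membrane. Its level was 223, 211 and 222 CPM in shCtrl replicates 1, 2 and 3 and 204, 203 and 195 CPM in shmiR155HG replicates 1, 2 and 3. The groups did not overlap, and the log2 fold change was −0.12 (SE 0.039, edgeR adjusted p = 0.0316), or 91.9% of the shCtrl level. This call was sensitive. The adjusted p from the same test lay between 0.0600 and 0.158 without shCtrl replicate 1 or 3 or any one of the shmiR155HG replicates, and after the GC correction the log2 fold change was −0.069 with an adjusted p of 0.260.

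SYTL1, SYTL2 and SYTL3 (Slp1, Slp2-a and Slp3-a) bind GTP-loaded RAB27A and link it to membrane phospholipids. SYTL1 (ENSG00000142765; chromosome 1 from 27342020 to 27353937, plus strand) was counted 45, 41 and 24 times in the shCtrl libraries (replicates 1, 2 and 3). The shmiR155HG libraries, in the same order, held 4, 3 and 0 counts. Every shmiR155HG library was therefore far below every shCtrl library, although the gene was scarcely expressed in either group, at 0.966 ± 0.303 CPM (SD, n = 3) and 0.0610 ± 0.0544 CPM (SD, n = 3). The fitted log2 fold change was −3.86 (SE 0.71, edgeR adjusted p = 0.000303). It was the lowest of the 12263 genes tested, but SYTL1 was among these only through shCtrl libraries, so the rank depends on the filter. Over the libraries together, 110 counts in shCtrl and 7 in shmiR155HG cells left 6.63% of the shCtrl level (exact Clopper–Pearson 95% interval 2.61 to 14.1%, counting error only). That interval takes each count as an independent event, but counts are of reads, not molecules, so it may be too narrow. Without shCtrl replicate 1 or 2 the gene no longer passed the filter. In each of the 14 alternatives that gave a value it was called lower.

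SYTL2 (ENSG00000137501; chromosome 11 from 85694224 to 85811159, minus strand) was lower as well. It was at 55.1, 56.7 and 60.6 CPM in shCtrl replicates 1, 2 and 3 and at 47.1, 48.4 and 45.7 CPM in shmiR155HG replicates 1, 2 and 3. The groups did not overlap, with a log2 fold change of −0.29 (SE 0.066, edgeR adjusted p = 0.00304). It was called lower in all 16 alternatives, with values from −0.32 to −0.25. SYTL3, the third of these effectors in the list, had 57.6 ± 0.728 CPM in shCtrl and 54.9 ± 2.13 CPM in shmiR155HG cells (SD, n = 3). It was not called (−0.07, 95% interval −0.20 to 0.06).

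STXBP2 (ENSG00000076944; chromosome 19 from 7636772 to 7647873, plus strand), the Munc18-2 protein that escorts syntaxin 11, was at 69.3, 70.7 and 69.1 CPM in shCtrl replicates 1, 2 and 3. In shmiR155HG replicates 1, 2 and 3 it was at 77.7, 80.7 and 78.2 CPM, above every shCtrl library. The log2 fold change was 0.18 (SE 0.057, edgeR adjusted p = 0.0310). The adjusted p was between 0.0567 and 0.118 when any one of the 6 libraries was left out, and the GC correction gave 0.085 with an adjusted p of 0.346. UNC13D, which primes the docked granule, had 64.6 ± 1.89 and 61.8 ± 4.50 CPM (SD, n = 3) and was not called (−0.063, 95% interval −0.20 to 0.07).

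Of the 8 SNARE proteins, which zip together to fuse vesicle and target membranes, SNAP23 was lower and the other 7 were not called. SNAP23 (ENSG00000092531; chromosome 15 from 42491233 to 42545356, plus strand) supplies a pair of helices to fusion complexes at the plasma membrane. Its level was 56.1, 54.1 and 64.9 CPM in shCtrl replicates 1, 2 and 3 and 48.9, 48.9 and 50.8 CPM in shmiR155HG replicates 1, 2 and 3. The groups did not overlap, but shCtrl replicate 3 stood above the other two. The log2 fold change was −0.24 (SE 0.071, edgeR adjusted p = 0.0216), and without shCtrl replicate 3 it was −0.15 (adjusted p = 0.167). The adjusted p was 0.0763 without shmiR155HG replicate 1, 0.0871 without shmiR155HG replicate 2 and 0.0878 after the GC correction.

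STX11, the syntaxin whose loss impairs NK cell degranulation, was at 82.5 ± 2.12 CPM in shCtrl and 81.9 ± 4.70 CPM in shmiR155HG cells (SD, n = 3). Its log2 fold change was −0.011 with a 95% interval of −0.13 to 0.11, and the sign changed when shCtrl replicate 3 or shmiR155HG replicate 3 was left out. Among the uncalled members, STX7, a late endosomal syntaxin, had the largest difference. It was at 45.8, 53.7 and 44.5 CPM in shCtrl replicates 1, 2 and 3 and at 41.1, 47.3 and 40.7 CPM in shmiR155HG replicates 1, 2 and 3, so the groups overlapped, with shmiR155HG replicate 2 above shCtrl replicates 1 and 3 (−0.16, adjusted p = 0.206 by edgeR). The plasma membrane syntaxins STX3 and STX4 had log2 fold changes of 0.031 and 0.10. VAMP7 and VAMP8, SNAREs of the lytic granule, had −0.037 and 0.038, and VAMP4, which acts between endosomes and the Golgi, had −0.071. None of these was called. STX4 and VAMP4 had few counts, at 17.2 to 23.4 CPM, and the interval of STX4 was wide (−0.12 to 0.31).

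None of the 6 genes for the granule membrane and its formation was called. LAMP1, the CD107a that reaches the cell surface upon degranulation, was at 149 ± 2.09 CPM in shCtrl and 154 ± 6.33 CPM in shmiR155HG cells (SD, n = 3), with a log2 fold change of 0.05 (95% interval −0.039 to 0.14). LAMP2, its partner in the lysosomal membrane, had −0.034, and LYST, which controls the size of lysosome-related organelles, had 0.10. AP3B1 and AP3D1, the large subunits of the AP-3 adaptor that sorts cargo to granules, lay on opposite sides of zero. AP3B1 was at 91.9, 91.8 and 98.4 CPM in shCtrl replicates 1, 2 and 3 and at 84.0, 87.9 and 84.7 CPM in shmiR155HG replicates 1, 2 and 3. These groups did not overlap, but the difference missed the threshold (−0.14, adjusted p = 0.0883 by edgeR). AP3D1 had 0.075 (adjusted p = 0.161 from the same test), and was called only without shCtrl replicate 3 (0.11, adjusted p = 0.0313). RAB7A, the GTPase of late endosomes that recruits motors to lysosomes, had 0.088 (adjusted p = 0.129).

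All 3 motor genes had positive log2 fold changes, as did 6161 of the 12263 genes tested, and MYH9 was called higher. Of 20 other motor genes, taken from a list of related genes, 6 were above zero and 14 below. MYH9 (ENSG00000100345; chromosome 22 from 36281280 to 36388010, minus strand) encodes the heavy chain of non-muscle myosin IIA, which works on actin at the last steps of granule release. It was at 1069, 1098 and 1191 CPM in shCtrl replicates 1, 2 and 3 and at 1225, 1216 and 1178 CPM in shmiR155HG replicates 1, 2 and 3. shCtrl replicate 3 lay above shmiR155HG replicate 3, so MYH9 was the only called member whose groups overlapped. The log2 fold change was 0.11 (SE 0.034, edgeR adjusted p = 0.0308). The adjusted p was between 0.129 and 0.182 without shCtrl replicate 1 or 2 or shmiR155HG replicate 1 or 2, and 0.0574 with edgeR's own filter on low counts. After the GC correction the value was 0.028 with an adjusted p of 0.643.

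KIF5B, the kinesin-1 heavy chain that moves granules toward the synapse, was at 95.9, 103 and 91.8 CPM in shCtrl replicates 1, 2 and 3. In shmiR155HG replicates 1, 2 and 3 it was at 112, 108 and 101 CPM, and only shmiR155HG replicate 3 fell within the shCtrl range. It missed the threshold (0.14, adjusted p = 0.0920 by edgeR), passed it after the GC correction (0.19, adjusted p = 0.0129) and passed it without shCtrl replicate 2 (0.19, adjusted p = 0.0488). DYNC1H1, the dynein heavy chain, had 0.082 (adjusted p = 0.161), and without shCtrl replicate 3 it had 0.14 (adjusted p = 0.00214).

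**Figure D3:**
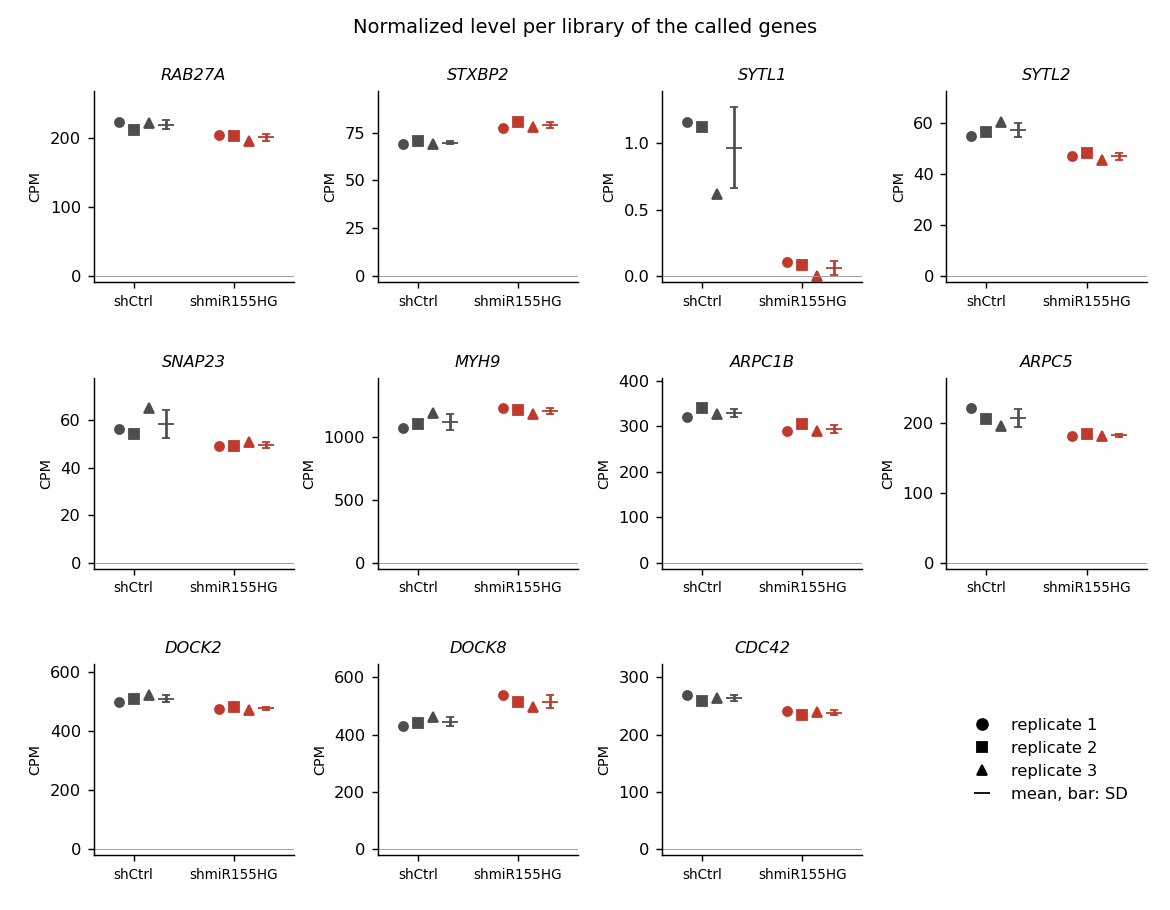
Normalized level (CPM, linear axes from 0) of the 11 called genes in each library, with the mean and SD of each group beside the points (n = 3). The groups are apart for every gene except MYH9, where shCtrl replicate 3 (1191 CPM) lies above shmiR155HG replicate 3 (1178 CPM).

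The Arp2/3 complex starts new actin branches on existing filaments. Of its 4 subunits among the members, ARPC1B and ARPC5 were lower, and the factors that switch the complex on were not called. Of all genes averaging 100 CPM or more, as these 4 did, 29.3% were called. The count of 4 subunits was not tested against that share. ARPC1B (ENSG00000130429; chromosome 7 from 99374249 to 99394816, plus strand), the blood cell form of the p41 subunit, was at 321, 339 and 326 CPM in shCtrl replicates 1, 2 and 3 and at 289, 304 and 290 CPM in shmiR155HG replicates 1, 2 and 3. ARPC5 (ENSG00000162704; chromosome 1 from 183620846 to 183635783, minus strand), the p16 subunit, was at 221, 206 and 196 CPM in shCtrl replicates 1, 2 and 3 and at 182, 185 and 181 CPM in shmiR155HG replicates 1, 2 and 3. For both genes each shmiR155HG library was below each shCtrl library. The log2 fold change was −0.16 for ARPC1B (SE 0.036, edgeR adjusted p = 0.00302) and −0.19 for ARPC5 (SE 0.043, edgeR adjusted p = 0.00279). Both stayed called in every alternative except the authors' fold change rule, with values from −0.24 to −0.13 for ARPC1B and −0.22 to −0.13 for ARPC5. ARPC2 and ARPC3, subunits of the same complex, had −0.056 and −0.08 and were not called (adjusted p = 0.336 and 0.238 by edgeR).

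Other subunits of the complex were taken from a list of related genes. ACTR2 and ACTR3, the actin-like subunits that give the complex its name, were both lower. ACTR2 was at 412 ± 9.70 CPM in shCtrl and 379 ± 3.48 CPM in shmiR155HG cells (SD, n = 3), a log2 fold change of −0.12 (adjusted p = 0.0143 by edgeR). ACTR3 was at 515 ± 12.4 and 471 ± 6.79 CPM (SD, n = 3), a log2 fold change of −0.13 (adjusted p = 0.00725 by edgeR). After the GC correction neither was called (−0.062 and −0.069). ACTR3 lost its call without shmiR155HG replicate 2 (adjusted p = 0.0573), and ACTR2 without shCtrl replicate 1 or 2 or shmiR155HG replicate 1 or 3 (adjusted p between 0.0547 and 0.0747). ARPC4 had −0.03.

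For ARPC1B and ARPC5 a paralog was looked at as well. ARPC1A, the paralog of ARPC1B, was at 94.3 ± 6.02 and 96.5 ± 2.36 CPM (SD, n = 3) and was not called. ARPC5L, the paralog of ARPC5, was higher, at 220 ± 2.93 CPM in shCtrl and 239 ± 4.83 CPM in shmiR155HG cells (SD, n = 3), with a log2 fold change of 0.12 (adjusted p = 0.0305 by edgeR). This call was lost after the GC correction (0.048, adjusted p = 0.445), without the filter on low counts (adjusted p = 0.0602) and without any one library other than shCtrl replicate 3 (adjusted p between 0.0526 and 0.129). Of the 9 genes looked at for the complex, with a median level of 230 CPM, 4 were lower and 1 was higher. Among all genes tested 15.3% were called, and 29.3% among those at 100 CPM or more. Some of the 9 were named after their values were seen, so their share does not test the complex. After the GC correction ARPC1B and ARPC5 stayed called, and ACTR2, ACTR3 and ARPC5L did not.

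**Figure D4:**
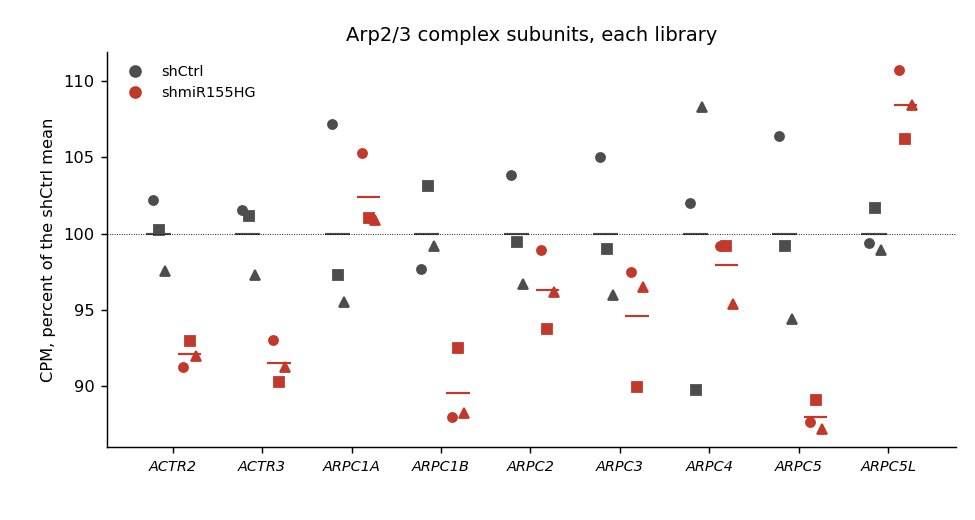
Level of the 9 Arp2/3 genes in each library as a percentage of the mean of the shCtrl libraries (lines, group means; n = 3; circles, squares and triangles, replicates 1, 2 and 3; the axis does not start at 0). ACTR2, ACTR3, ARPC1B and ARPC5 lie wholly below the shCtrl libraries and ARPC5L wholly above them.

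WAS, the protein that activates Arp2/3 in blood cells, and its stabilizing partner WIPF1 had log2 fold changes of 0.11 and 0.075. In both genes every shmiR155HG library lay above every shCtrl library, at 109 to 112 against 98.9 to 108 CPM for WAS and 524 to 533 against 493 to 514 CPM for WIPF1. Neither passed the threshold (adjusted p = 0.172 and 0.121 by edgeR). HCLS1, the cortactin-like protein that holds branches together, had 0.056. Of the 3 genes of filament turnover none was called. PFN1 (profilin, which feeds actin monomers to growing ends) was at 1528 ± 17.8 and 1537 ± 33.1 CPM (SD, n = 3), with a 95% interval of the log2 fold change of −0.05 to 0.068. CFL1 (cofilin, which severs filaments) was at 781 ± 2.58 and 788 ± 8.15 CPM (SD, n = 3), with an interval of −0.048 to 0.074. CORO1A, a coronin that opens the cortical actin mesh for granules, was at 1262 ± 9.36 and 1213 ± 42.8 CPM (SD, n = 3) with a log2 fold change of −0.057 (adjusted p = 0.235 by edgeR). After the GC correction CORO1A was called lower (−0.16, adjusted p = 0.000481). Per kilobase of the canonical transcript, PFN1, CORO1A and CFL1 were the most abundant members, at 1899, 763 and 630 CPM per kb over all libraries, and SYTL1, LYST and STX7 the least, at 0.265, 2.54 and 2.87 CPM per kb.

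The pair of DOCK exchange factors moved in opposite directions. DOCK8 (ENSG00000107099; chromosome 9 from 214854 to 465259, plus strand), which loads CDC42 with GTP, was at 430, 442 and 461 CPM in shCtrl replicates 1, 2 and 3 and at 538, 514 and 495 CPM in shmiR155HG replicates 1, 2 and 3. All shmiR155HG libraries were above all shCtrl libraries, and the log2 fold change was 0.21 (SE 0.036, edgeR adjusted p = 0.000101). It was called higher in every alternative except the authors' fold change rule (0.18 to 0.25). DOCK2 (ENSG00000134516; chromosome 5 from 169637268 to 170083382, plus strand), which loads RAC GTPases, was at 498, 508 and 522 CPM in shCtrl replicates 1, 2 and 3 and at 476, 482 and 473 CPM in shmiR155HG replicates 1, 2 and 3. The groups were apart, with a log2 fold change of −0.094 (SE 0.032, edgeR adjusted p = 0.0476), just inside the threshold. The adjusted p was between 0.104 and 0.157 without any one library other than shCtrl replicate 1, 0.0541 with DESeq2's size factors, 0.0505 with scaling to total counts and 0.0502 with edgeR's own filter on low counts.

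CDC42 (ENSG00000070831; chromosome 1 from 22052627 to 22101360, plus strand), the GTPase that turns on WAS and polarizes the cell, was lower. It was at 269, 258 and 264 CPM in shCtrl replicates 1, 2 and 3 and at 242, 234 and 240 CPM in shmiR155HG replicates 1, 2 and 3, with no overlap. The log2 fold change was −0.14 (SE 0.036, edgeR adjusted p = 0.00692). The call was lost narrowly after the GC correction (−0.10, adjusted p = 0.0556) and without shmiR155HG replicate 2 (adjusted p = 0.0552). RAC2, the RAC of blood cells, was at 387 ± 6.75 and 397 ± 2.92 CPM, RHOA, which drives myosin contraction, at 452 ± 15.2 and 444 ± 7.40 CPM, and STK4 (MST1), the Hippo kinase of lymphocyte polarity, at 167 ± 9.69 and 167 ± 2.50 CPM (SD, n = 3). None of these was called, and their 95% intervals of the log2 fold change were −0.032 to 0.10, −0.10 to 0.043 and −0.10 to 0.083.

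Over all uncalled members, 28 in number, adjusted p-values ranged from 0.0883 to 0.946. Of them, 7 had an unadjusted p under 0.05, namely AP3B1, AP3D1, RAB7A, KIF5B, DYNC1H1, WAS and WIPF1. Their 95% intervals bounded the log2 fold change at −0.32 (STX7) and 0.31 (STX4) at the widest, and 19 of the 28 intervals lay within 0.20 of zero.

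**Figure D5:**
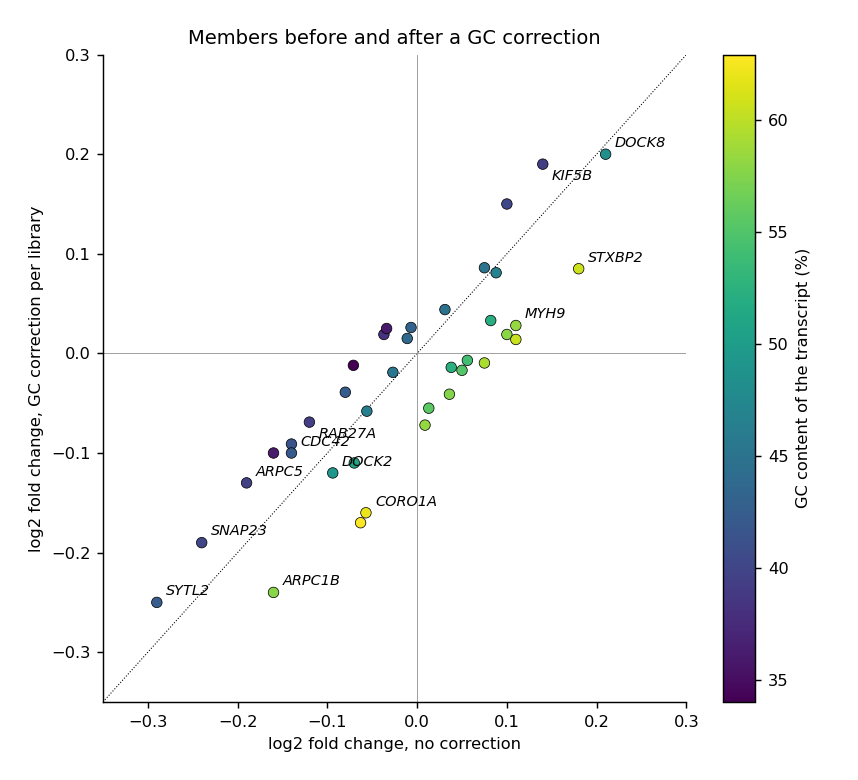
Log2 fold change of 38 members (SYTL1 is off the axes) without and with a GC correction per library, colored by the GC content of the transcript. GC-rich members such as MYH9 (0.11 to 0.028) and CORO1A (−0.057 to −0.16) move down and AT-rich members such as KIF5B (0.14 to 0.19) move up, while DOCK8 (0.21 to 0.20) stays near the diagonal.

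With the GC correction, 8 members were called against 14.8% of all genes tested, and 6 of the 8 were among those called without it. SYTL1, SYTL2, ARPC1B, ARPC5, DOCK2 and DOCK8 kept their calls. RAB27A, SNAP23, CDC42, STXBP2 and MYH9 lost them, and KIF5B and CORO1A gained one. The transcripts called lower had a median GC content of 42.2%, those called higher 58.3%, and all genes tested 48.3%.

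Because miR155HG is the precursor of miR-155, the 3′UTRs of the members were searched for the letters that pair with bases 2 to 8 of miR-155-5p. The mature sequence (RefSeq, GRCh38.p14, chromosome 21 from 25573983 to 25574006, plus strand) is shown with these bases in capitals, followed by the members that hold the match AGCATTA, also in capitals, with 10 bases on each side, 5′ to 3′ on the strand of the gene.
hsa-miR-155-5p: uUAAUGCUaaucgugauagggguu
SYTL2, chr11:85694896-85694922, minus strand: gctgccccagAGCATTAaacatggggt
ARPC5, chr1:183621317-183621343, minus strand: tacagtgaatAGCATTAtacacaagtc
ARPC3, chr12:110434943-110434969, minus strand: aattttctgcAGCATTAaagctggcgc
LAMP2, chrX:120430424-120430450, minus strand: tgatctctggAGCATTAaaatctattt
LAMP2, chrX:120427986-120428012, minus strand: cctcctgatcAGCATTAtttaaatctg
STX7, chr6:132449980-132450006, minus strand: aatgctttaaAGCATTAaagtagtcct
STX7, chr6:132447657-132447683, minus strand: taaagtgaaaAGCATTAataaggataa

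A match was present in 5 of 39 members (12.8%), against 11.9% of the 10763 genes tested that have a 3′UTR, searching the sense strand of the canonical transcript only. The share depended on the length of the 3′UTR. Under 1000 bases it was 2 of 18 members (11.1%) and 2.52% of genes, and at 1000 bases or more 3 of 21 members (14.3%) and 18.9% of genes. SYTL2 and ARPC5, both lower, were among the 5, and ARPC3, LAMP2 and STX7 were not called. Of all genes tested with a match 18.2% were called, and of those without one 16.3%. The log2 fold change was below zero for all 5, with a median of −0.16, and the 34 members without a match had a median of 0.011. The 5 transcripts were AT-rich, with a GC content of 36.0 to 42.4%, a range in which the median of all genes also lay below zero. After the GC correction LAMP2 was at 0.025, and the other 4 lay between −0.25 and −0.039. Without shmiR155HG replicate 1 LAMP2 was at 0.0022. Over all genes tested the medians were −0.02 with and −0.002 without a match. The site of SYTL2 begins at base 283 of a 3′UTR of 966 bases, that of ARPC3 at base 196 of 332, and that of ARPC5 at base 6199 of 6686. The sites of STX7 begin at bases 10762 and 13085 of a 3′UTR of 14891 bases. The level of miR-155 itself was not measured in these libraries, and a match of letters does not show that a site is used.

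The related genes, 185 in 7 lists, hold other parts of the same machinery, and 160 of them were tested. Of these, 9 were higher and 16 lower, or 15.6% called, near the 15.3% of all genes tested. Their median level was 69.1 CPM. In the list of SNAREs and fusion factors, 1 of 25 was called, SEC22B of the early secretory pathway (−0.17, adjusted p = 0.0299 by edgeR). In the list of Rab GTPases and effectors none of 17 was called. Of 26 genes of lysosome-related organelle biogenesis 3 were lower, led by HPS3 of the BLOC-2 complex (−0.21, adjusted p = 0.0145 by edgeR) and VPS33A of the HOPS tethering complex (−0.20, adjusted p = 0.0349). All 4 of the 20 motor genes that were called were lower, led by the myosin light chains MYL12A (−0.23, adjusted p = 0.000283 by edgeR) and MYL6 (−0.17, adjusted p = 0.0333). SEC22B lost its call without shCtrl replicate 1 or 3 or shmiR155HG replicate 2 or 3 (adjusted p of 0.0858 to 0.165), and HPS3 without shCtrl replicate 1 or shmiR155HG replicate 2 or 3 (0.0594 to 0.0729). VPS33A lost it without any one library other than shCtrl replicate 1 (0.0537 to 0.194), and MYL6 without shCtrl replicate 1 or 2 or shmiR155HG replicate 1 or 3 (0.0865 to 0.182). After the GC correction SEC22B and HPS3 were not called (−0.11 and −0.16).

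In the lists for actin the changes went both ways. Of 20 genes for Arp2/3 and other nucleation factors, 3 were higher and 3 lower. EVL, an Ena/VASP protein that lengthens filaments, rose (0.33, adjusted p = 3.63e-07 by edgeR), and the formin DIAPH2 fell (−0.41, adjusted p = 0.00302). Of 30 genes of filament dynamics, 3 were higher and 4 lower. LIMK1, the kinase that inactivates cofilin, was at 125, 134 and 132 CPM in shCtrl replicates 1, 2 and 3 and at 201, 191 and 211 CPM in shmiR155HG replicates 1, 2 and 3. Its log2 fold change of 0.62 (adjusted p = 4.95e-11 by edgeR) exceeded that of any member other than SYTL1 in size. LIMK2, the other LIM kinase for cofilin, named after its values were seen, went the other way, from 58.0 ± 1.39 CPM in shCtrl to 47.2 ± 2.08 CPM in shmiR155HG cells (SD, n = 3), a log2 fold change of −0.30 (edgeR adjusted p = 0.00203). Vinculin (VCL), which ties actin to integrins, rose by 0.36 on the log2 scale (adjusted p = 4.47e-05).

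The exons of 7 members overlap another gene of the table on the opposite strand, and whether the counting used the strand is not given in the sources used here. Among the called members these are DOCK8, with DOCK8-AS1 at 5.04 to 8.52 CPM, SNAP23, with AC018362.1 at 0.282 to 1.04 CPM, and ARPC1B, with PDAP1 at 133 to 152 CPM. PDAP1 itself had a log2 fold change of −0.12 (adjusted p = 0.0857 by edgeR), and its part in the ARPC1B counts was not tested. CDC42, CFL1, PFN1 and the ARPC and MYL genes have processed copies or close paralogs elsewhere in the genome with which reads could be shared.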

How the data were processed

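RNA-seq libraries of NK92 cells (3 shCtrl, 3 shmiR155HG) were used, grouped by sample title; the treatment labels of shmiR155HG replicates 2 and 3 spell the gene with other numbers. HISAT2 (alignment to hg38), StringTie with its -e option and prepDE.py3 were used by the authors, who deposited whole-number counts per gene without normalization. Versions, annotation release, strand setting and the read length given to prepDE.py3 are not given in the sources used here.

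The test was that of edgeR 4.0.16 in R 4.3.3 (TMM scaling, more than 1 CPM in at least 2 libraries, robust quasi-likelihood test, no replicate block, Benjamini–Hochberg adjustment over 12263 genes, threshold 0.05). CPM values are TMM-normalized. SE and 95% intervals are of the log2 fold change. DESeq2 1.42.0, limma 3.58.1, edgeR's exact test, 2 other scalings, 2 other filters, halved counts, a replicate block, a GC correction (loess per library as offsets) and leaving out each library were alternatives. The main test, the block, the GC correction and the tests of the other tools were tested on simulated data. The simulated counts held no GC trend and no replicate effect, so they cannot show how the correction or the block handles these. Transcripts, lengths, GC content and positions come from GENCODE 44 on hg38 by gene ID, and can differ from the authors' annotation.

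The members and lists were chosen with earlier results of these data known. Every member is named; those called, and the 3 uncalled ones with the largest absolute log2 fold change, are given per library. In each list of related genes the 2 called genes with the largest absolute log2 fold change are named, except in 1 list that is not reported here on its own. Other Arp2/3 subunits and LIMK2 were named after their values were seen. Total counts of 33454786 to 39157264 set the counting error. Among the members and MIR155HG it is largest for SYTL1 and MIR155HG, and next for members with few counts, such as STX4, VAMP4 and VAMP8. Counts are of reads, not molecules, and would be halved or doubled together if prepDE.py3 was given another read length.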

Additional observations from a re-analysis of the deposited data

How the results depend on the processing

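Across 16 alternatives no called member changed sign. SYTL1 was called in the 14 that gave a value. It passed the filter only through shCtrl libraries and had no value without shCtrl replicate 1 or 2. Its count is therefore not comparable with those of the other members. SYTL2 was called in all 16. ARPC1B, ARPC5 and DOCK8 lost their calls only under the authors' rule of a fold change over 1.2 with edgeR's exact test. That rule asks for a larger fold than most members show, and called 0 members higher and 2 lower, and 7 of the related genes higher and 3 lower, against 9 and 16. Leaving out 1 library at a time gave 1 to 4 members higher and 4 to 6 lower, and 6 to 13 related genes higher and 9 to 16 lower. Deviations from the group means hardly correlated between same-numbered libraries over the genes tested (−0.0128 to 0.0197). On the second principal component of these genes, however, the replicate 3 libraries lay together, at 14.5 (shCtrl) and 14.4 (shmiR155HG). The other libraries lay there between −18.1 and 3.5. Whether same-numbered libraries shared a batch is not given in the sources used here. With the replicate block, 2 members were higher and 6 lower, and DOCK2, MYH9 and RAB27A were no longer called (adjusted p of 0.0800, 0.0550 and 0.0502 by edgeR), nor were ARPC5L (0.0513) and VPS33A (0.0524) of the related genes; 1738 genes were called with the block and 1874 without.

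Among the genes named, signs changed only in those without a call, and the cause was not tested. With the GC correction the log2 fold change became 0.015 for STX11, 0.019 for VAMP7, −0.014 for VAMP8, −0.017 for LAMP1, 0.025 for LAMP2, −0.0096 for AP3D1, −0.007 for HCLS1, −0.055 for CFL1, −0.072 for PFN1, −0.041 for RAC2 and 0.026 for STK4. Leaving out 1 library gave ranges that crossed zero for STX3 (−0.0096 to 0.068), STX11 (−0.055 to 0.029), VAMP7 (−0.084 to 0.0087), LAMP2 (−0.068 to 0.0022), LYST (−0.011 to 0.16), PFN1 (−0.0029 to 0.026), RHOA (−0.041 to 0.0036), STK4 (−0.053 to 0.02) and ARPC4 (−0.10 to 0.033).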
